A study of Mus musculus with 6 samples.

Results

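The genes described here are the Wnt ligands, their receptors, the secreted proteins that promote or block Wnt signalling, and the first proteins inside the cell that pass the signal on. Membership follows from the gene symbol, and the set itself was chosen with earlier results of these data known. The symbols covered are Wnt, Fzd, Sfrp, Dkk, Rspo, Lgr4 to Lgr6, Lrp5, Lrp6, Ror1, Ror2, Axin, Dvl, Tcf7 and its relatives, Lef1, Wif1, Znrf3, Rnf43, Porcn, Wls and Notum. The symbol rule found 41 of the 14549 genes in the table, among them 8 of the 19 Wnt genes and 9 of the 10 Frizzled genes of the GENCODE M21 annotation. Another 22 genes of that annotation fit the rule and were not analysed here: Dkk1, Dkk2, Dkk4, Fzd10, Lef1, Lgr5, Notum, Rnf43, Rspo4, Sfrp4, Sfrp5, Wnt1, Wnt3, Wnt3a, Wnt6, Wnt7a, Wnt8a, Wnt8b, Wnt9b, Wnt10a, Wnt10b and Wnt16.

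Wnt proteins are secreted, lipid-modified signals that bind Frizzled receptors. With the co-receptors Lrp5 and Lrp6 they prevent the destruction of beta-catenin, which then activates genes together with TCF/LEF factors, while with Ror receptors they act on cell shape and polarity without beta-catenin. R-spondins bind Lgr receptors and remove the ligases Znrf3 and Rnf43, which otherwise clear Frizzled receptors from the cell surface, so they raise a cell's response to Wnt. The epicardium is the outer cell layer of the heart, a source of cardiac fibroblasts and mural cells and of secreted signals for the muscle beneath it.

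The tissue was dissected epicardium with subepicardium from E16.5 mouse embryos, late in heart development, and its polyadenylated RNA was sequenced in 3 libraries per group. The dKO embryos carried floxed alleles of both Meis1 and Meis2 and the WT1-Cre recombinase (Meis1fl/fl;Meis2fl/fl;WT1-Cre), so deletion was directed to cells in which WT1-Cre had been active, the epicardium and its descendants among them. The controls are labelled wild-type. Each library pooled 2 hearts of 1 genotype, taken from at least 3 litters over the study, and used 40 ng of total RNA. Meis1 and Meis2 are homeodomain transcription factors of the TALE class. The sources used here do not say whether the controls carried the Cre or which exons were deleted. The libraries are numbered as titled, control 1, 2 and 4 and dKO 1, 2 and 3, and values are given in that order.

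Values are normalised read counts (reads per 1000000 of a scaled library size), which the deposited table holds as whole reads plus 0.5, and the totals ran from 13146322 to 20635676 reads per library. Meis2 fell from 78.3 ± 12.99 in controls to 41.3 ± 5.59 in dKO (SD, n = 3 each), a log2 change of -0.90 (SE 0.16, adjusted p = 0.00352) by limma. The exact two-sided permutation p was 0.1, the smallest that 3 against 3 libraries allow. Meis1 was at 77.8 ± 24.8 and 65.9 ± 7.82 (SD, n = 3 each), a log2 change of -0.20 (SE 0.20, adjusted p = 0.521) with an exact permutation p of 0.7. Because the deleted exons are not given, whole-gene reads of Meis1 do not check its label. Cell type markers differed between the groups. Of 20 cardiomyocyte markers 18 were higher in dKO, with summed levels of 5774 to 12938 in controls and 29973 to 33783 in dKO. Of 17 epicardial and mesothelial markers 16 were lower, at 3039 to 4477 against 564 to 707, and of 12 fibroblast markers 9 were lower, at 29102 to 33258 against 12152 to 15631. Mural markers were higher for 8 of 11, lymphatic endothelial markers lower for 6 of 7, macrophage markers lower for 3 of 8 and measured mast cell markers lower for 3 of 4, while 1 of 12 pan-endothelial markers was lower. None of the 8 lung and airway markers was in the table, and Ccl21a, a lymphatic marker, was the only marker gene of the measured lists with 0 reads in a library. Mitochondrially encoded transcripts took 5.99%, 8.80% and 10.4% of the signal in controls and 19.9%, 11.3% and 12.4% in dKO. Library dKO 1, the highest, also had 234 genes at 0 reads, against 59 to 98 in the other libraries. The part of these differences in the results below was not tested, and in such bulk tissue fewer cells of a type and less RNA per cell cannot be told apart.

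Of the 41 genes, 14 differed between dKO and control at an adjusted p under 0.05 (limma, adjusted over all 14549 genes). That is 34.1%, where 22.0% of all genes passed the same threshold. Lower in dKO were 11 genes, or 26.8%, against 12.2% of all genes, and higher were 3 genes, or 7.32%, against 9.81% of all genes. Wnt7b, Rspo2 and Fzd9 reached the required value of 1 only in the group where they are high, so they could enter the test only by differing. Of the other 38 genes, 11 passed (28.9%), 9 lower (23.7%) and 2 higher (5.26%). The median log2 change (dKO minus control, on log2 of the value plus 1) was -0.24 over the 41 genes and 0.00 over all genes, and 26 of the 41 estimates were below 0. The libraries of both groups did not overlap for 23 of the 41 genes, against 40.4% of all genes. The lower genes were Wnt2b, Wnt5a, Wnt7b, Wnt9a, Fzd1, Fzd7, Sfrp2, Rspo1, Rspo2, Rspo3 and Tcf7l1, and the higher ones were Wnt4, Fzd9 and Lgr4. With the mean log2 level of the cardiomyocyte markers as a covariate, Rspo1 alone of the 14 passed, at a log2 change of -3.48 (adjusted p = 0.00142). Of the calls lost, some had a larger estimate than before: 2.46 (adjusted p = 0.055) for Wnt4, -2.69 (adjusted p = 0.103) for Wnt7b, 1.80 (adjusted p = 0.376) for Fzd9, 0.98 (adjusted p = 0.153) for Lgr4 and -2.21 (adjusted p = 0.193) for Rspo2. Others were closer to 0: -1.53 (adjusted p = 0.124) for Sfrp2, -1.21 (adjusted p = 0.594) for Rspo3, -1.02 (adjusted p = 0.429) for Wnt2b, -0.90 (adjusted p = 0.5) for Wnt5a, -0.70 (adjusted p = 0.679) for Wnt9a, -0.88 (adjusted p = 0.381) for Fzd7, -0.06 (adjusted p = 0.965) for Fzd1 and -0.19 (adjusted p = 0.904) for Tcf7l1. The covariate mean was 7.07 to 8.24 in controls and 9.39 to 9.68 in dKO, so it and the genotype cannot be fully told apart.

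**Figure D1:**
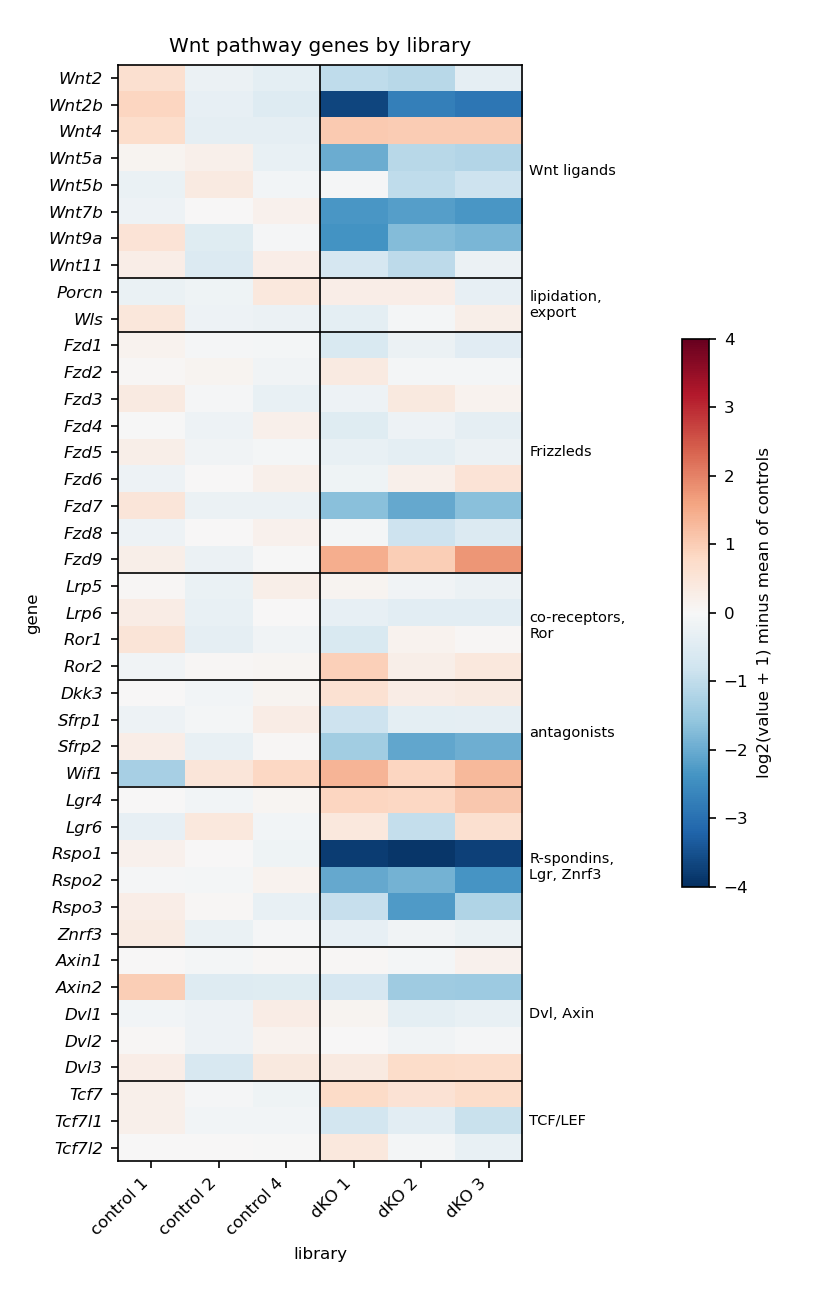
Heat map of the 41 genes (rows, grouped by role) in the 6 libraries (columns), coloured by log2 of each library's value plus 1 minus the control mean. Rspo1, Wnt2b, Wnt7b and Rspo2 are low in all 3 dKO libraries, and control 1 stands above the other controls for several genes.

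Of the 8 Wnt ligand genes, 4 were lower in dKO, 1 was higher and 3 did not pass the test, with a median log2 change of -1.13. Among all genes, 12.2% were lower and 9.81% were higher. Wnt7b, 1 of the 4 lower ligands, could enter the test only by differing, so the filter partly fixed this count. Wnt2b (chromosome 3, 104945272 to 104961921, GRCm38; a ligand that acts through beta-catenin) measured 72.2, 31.0 and 27.5 for the controls and 2.21, 5.07 and 4.51 for dKO. Every dKO library was below every control, although control 1 was well above the other controls. Wnt2b was 11.1-fold lower by group means, with a log2 change of -3.09 (SE 0.37, adjusted p = 0.000372).

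Wnt5a (chromosome 14, 28504750 to 28527448), the best known ligand of the beta-catenin-independent branch, stood at 94.8, 102 and 72.0 in controls and 21.5, 40.8 and 38.9 in dKO. The groups did not overlap and dKO 1 was the lowest library. Its log2 change was -1.42 (SE 0.24, adjusted p = 0.00224), a 2.66-fold lower mean. Wnt9a (chromosome 11, 59306928 to 59333552), a ligand known from joint and limb development, had 29.8, 14.1 and 19.7 in controls and 3.08, 5.44 and 4.99 in dKO. All dKO libraries lay below the lowest control, and the log2 change was -1.98 (SE 0.30, adjusted p = 0.00136).

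Wnt7b, a ligand with roles in lung and vessel development, was nearly absent from the dKO libraries. It was counted with 197 reads over the 3 controls and 1 read over the 3 dKO libraries. The values were 3.49, 4.24 and 4.79 for the controls and 0.0311, 0.111 and 0.0244 for dKO, where dKO 1 and dKO 3 had 0 reads and show only the added 0.5. The ratio of control to dKO reads, corrected for depth, was 207, with an exact 95% interval of 36.8 to 8234 that covers counting error only. On the log2 scale with 1 added, which understates such a change, the difference was -2.29 (SE 0.29, adjusted p = 0.000485). Wnt7b met the filter through the controls alone.

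Wnt4, a ligand with known roles in kidney and gonad development, went the other way. It measured 6.76, 2.78 and 2.76 in controls and 8.92, 8.77 and 8.599 in dKO. The dKO libraries lay close together and above all controls, and control 1 was nearer to them than the other controls were. The log2 change of Wnt4 was 1.03 (SE 0.31, adjusted p = 0.0392). This call was lost when any single library other than control 1 was left out, with adjusted p values of 0.0832 without dKO 1, 0.1 without dKO 2, 0.0999 without dKO 3, 0.116 without control 4 and 0.12 without control 2, and with edgeR on the recovered reads (0.0785), while without control 1 it was 0.00447.

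The other 3 ligands did not pass. Wnt5b, a close relative of Wnt5a, had 12.3, 19.5 and 13.6 in controls and 14.3, 6.77 and 7.87 in dKO, with a log2 change of -0.64 (SE 0.29, adjusted p = 0.144). Library dKO 1 reached into the control range for Wnt5b, and without it the change was -0.93 (adjusted p = 0.0318). Wnt11, known from heart morphogenesis, had 10.2, 5.33 and 10.2 in controls against 4.76, 3.44 and 6.89 in dKO, with a log2 change of -0.66 (SE 0.31, adjusted p = 0.167). Wnt2, a relative of Wnt2b, was counted with 121 reads in controls and 50 in dKO. Its groups overlapped, and its log2 change was -0.84 (SE 0.37, adjusted p = 0.138).

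Divided by exon length, which allows levels to be compared between genes, the summed Wnt ligand level was 49.6, 35.7 and 31.6 per kb in controls and 13.2, 13.8 and 14.9 per kb in dKO. The dKO mean was 35.9% of the control mean, and no dKO library reached a control. Wnt5a held 24.5%, 36.7% and 29.1% of this sum in controls and 20.9%, 37.8% and 33.2% in dKO, so its share overlapped between the groups while its level was lower. The share of Wnt2b was 34.7%, 20.7% and 20.7% in controls against 3.99%, 8.74% and 7.18% in dKO. The share of Wnt4 went from 3.25%, 1.85% and 2.08% to 16.2%, 15.2% and 13.7%. The ligand mixture therefore differed in composition as well as in sum, although these sums were described and not tested.

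**Figure D2:**
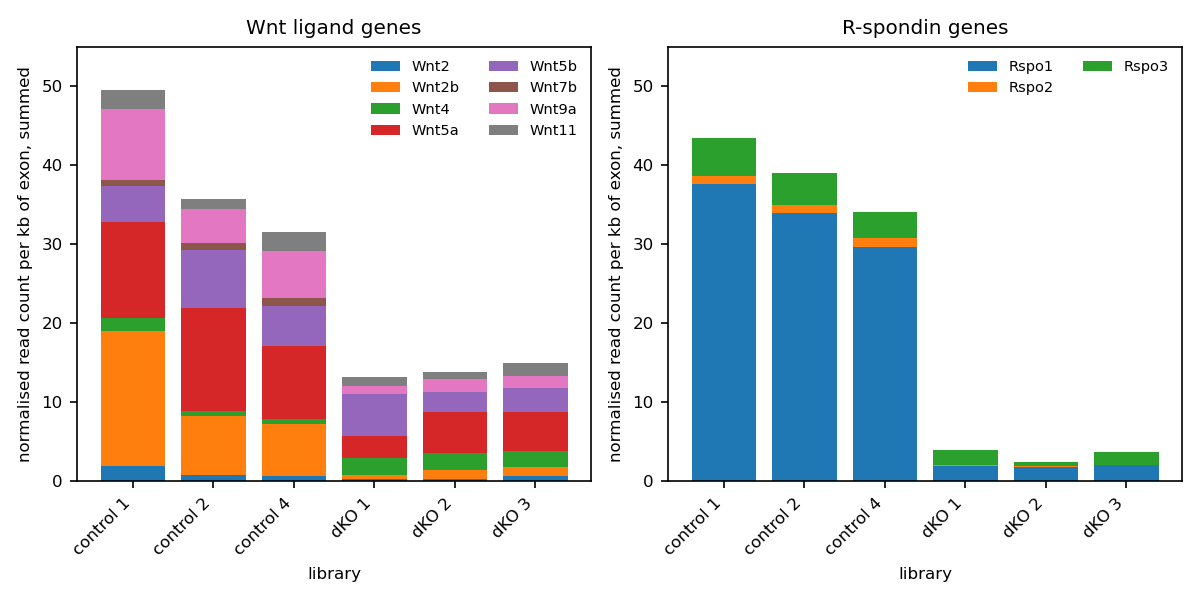
Summed normalised read count per kb of exon of the Wnt ligand genes (left) and the R-spondin genes (right) in the 6 libraries, with each bar divided by gene. The Wnt ligand sum is 31.6 to 49.6 in controls and 13.2 to 14.9 in dKO, and the R-spondin sum is 34.1 to 43.5 in controls and 2.499 to 4.01 in dKO.

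Porcn, the enzyme that attaches the lipid, and Wls, the carrier that brings Wnt proteins to the cell surface, did not pass the test by limma, edgeR or DESeq2, and 0 of 2 passed at an unadjusted p under 0.05. Among all genes, 22.0% passed by limma at the adjusted threshold. Wls had 311, 199 and 193 in controls and 173, 214 and 267 in dKO, a log2 change of -0.09 (SE 0.21, adjusted p = 0.795) with a 95% interval of -0.55 to 0.37. Porcn had 1.76, 1.95 and 3.46 in controls against 3.01, 2.996 and 1.63 in dKO, a log2 change of 0.07 (SE 0.32, adjusted p = 0.896). The groups overlapped for both genes.

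Of the 6 genes for R-spondins, their receptors and the ligases, 3 were lower in dKO, 1 was higher and 2 did not pass. Among all genes, 12.2% were lower and 9.81% were higher. The 3 lower genes were the R-spondins in the table, of which Rspo2 met the filter through the controls alone. Rspo1 (chromosome 4, 124986430 to 125009099), a secreted amplifier of Wnt signalling, measured 72.9, 65.8 and 57.5 in controls and 3.76, 3.44 and 3.92 in dKO. The libraries lay close together within each group and far apart between groups. Rspo1 was 17.6-fold lower, with a log2 change of -3.81 (SE 0.18, adjusted p = 1.87e-06), and it passed in each of the 18 alternative fits.

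Rspo2, a family member known from limb and lung development, was counted with 250 reads in controls and 21 in dKO, a ratio of 12.5 with an exact 95% interval of 8.02 to 20.6 from counting alone. This gave 5.09, 4.88 and 5.87 for the controls and 0.528, 0.703 and 0.219 for dKO, without overlap, and the log2 change was -2.09 (SE 0.28, adjusted p = 0.00073). Rspo3 (chromosome 10, 29452416 to 29535867), known from vessel and placenta development, had 15.1, 12.9 and 10.0 in controls and 6.06, 1.81 and 4.90 in dKO. No dKO library reached the lowest control, and dKO 2 was the lowest. Its log2 change was -1.46 (SE 0.35, adjusted p = 0.0134), and 13.1% of its exonic length overlaps another annotated gene.

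The summed R-spondin level was 43.5, 39.1 and 34.1 per kb in controls and 4.01, 2.499 and 3.65 per kb in dKO, or 8.71% of the control mean. Rspo1 made up 86.5%, 86.9% and 87.1% of it in controls and 48.4%, 71.0% and 55.4% in dKO. Epicardial and mesothelial markers, lower in dKO for 16 of 17 genes, moved in the same direction as the R-spondins. So did fibroblast (9 of 12), lymphatic endothelial (6 of 7), mast cell (3 of 4) and macrophage (3 of 8) markers. Cardiomyocyte (18 of 20) and mural (8 of 11) markers were higher. The part of these differences was not tested.

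Their receptor Lgr4 (chromosome 2, 109917647 to 110014257) was higher in dKO. It measured 54.99, 50.5 and 57.7 in controls and 98.7, 97.3 and 117 in dKO. The groups were clearly apart and each was narrow. Lgr4 was 1.92-fold higher, with a log2 change of 0.92 (SE 0.13, adjusted p = 0.000802). The related receptor Lgr6 had 6.51, 11.8 and 7.78 in controls and 11.8, 3.88 and 13.8 in dKO, with a log2 change of 0.04 (SE 0.40, adjusted p = 0.953) and a 95% interval of -0.85 to 0.94. Znrf3, the ligase removed by R-spondins, had 20.2, 13.1 and 15.3 in controls against 12.6, 14.3 and 13.1 in dKO, a log2 change of -0.24 (SE 0.21, adjusted p = 0.438).

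Of the 9 Frizzled receptors, 2 were lower, 1 was higher and 6 did not pass, with a median log2 change of -0.31. That is 22.2% lower and 11.1% higher, against 12.2% and 9.81% of all genes. Fzd7 (chromosome 1, 59482424 to 59486955), a receptor known from stem and progenitor cells, measured 79.4, 48.3 and 47.6 in controls and 17.3, 13.1 and 17.0 in dKO. The groups did not overlap, although control 1 was above the other controls. Fzd7 was 3.70-fold lower, with a log2 change of -1.79 (SE 0.22, adjusted p = 0.000389).

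Fzd1 and Fzd2 belong to the same sequence subfamily as Fzd7. Fzd1 (chromosome 5, 4753839 to 4758035) had 95.5, 83.4 and 82.6 in controls and 56.7, 73.9 and 62.8 in dKO, a small difference of -0.43 (SE 0.14, adjusted p = 0.0448) without overlap. Its call was lost when any single library other than dKO 2 was left out, with adjusted p values of 0.0721 without control 4, 0.0739 without control 2, 0.107 without control 1, 0.122 without dKO 1 and 0.131 without dKO 3. Fzd2 had 49.1, 51.1 and 42.4 in controls and 60.8, 44.3 and 44.9 in dKO, with a log2 change of 0.06 (SE 0.16, adjusted p = 0.818) and a 95% interval of -0.29 to 0.41.

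Fzd9, a receptor of low level here, was counted with 16 reads over the controls and 138 over the dKO libraries. The ratio of dKO to control was 8.19, with an exact 95% interval of 4.87 to 14.7 from counting alone. This gave 0.587, 0.160 and 0.349 for the controls and 2.704, 1.66 and 3.58 for dKO, with no overlap, and the log2 change was 1.40 (SE 0.33, adjusted p = 0.0125). Fzd9 met the filter through the dKO libraries alone. Without dKO 3, the highest library, the change was 1.21 (adjusted p = 0.064) and no longer passed.

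The remaining Frizzled genes did not pass. Fzd4, a receptor with a known role in vessel growth, had 173, 152 and 198 in controls and 122, 151 and 135 in dKO. Its groups did not overlap, with a log2 change of -0.35 (SE 0.14, adjusted p = 0.0945). The log2 changes of the others were 0.11 for Fzd3, -0.31 for Fzd5, 0.19 for Fzd6 and -0.49 for Fzd8. The summed Frizzled level was 93.2, 80.5 and 85.7 per kb in controls and 65.3, 69.1 and 68.1 per kb in dKO, or 78.1% of the control mean. Fzd7 made up 14.8% of that sum in controls and 5.17% in dKO (group means of the shares).

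**Figure D3:**
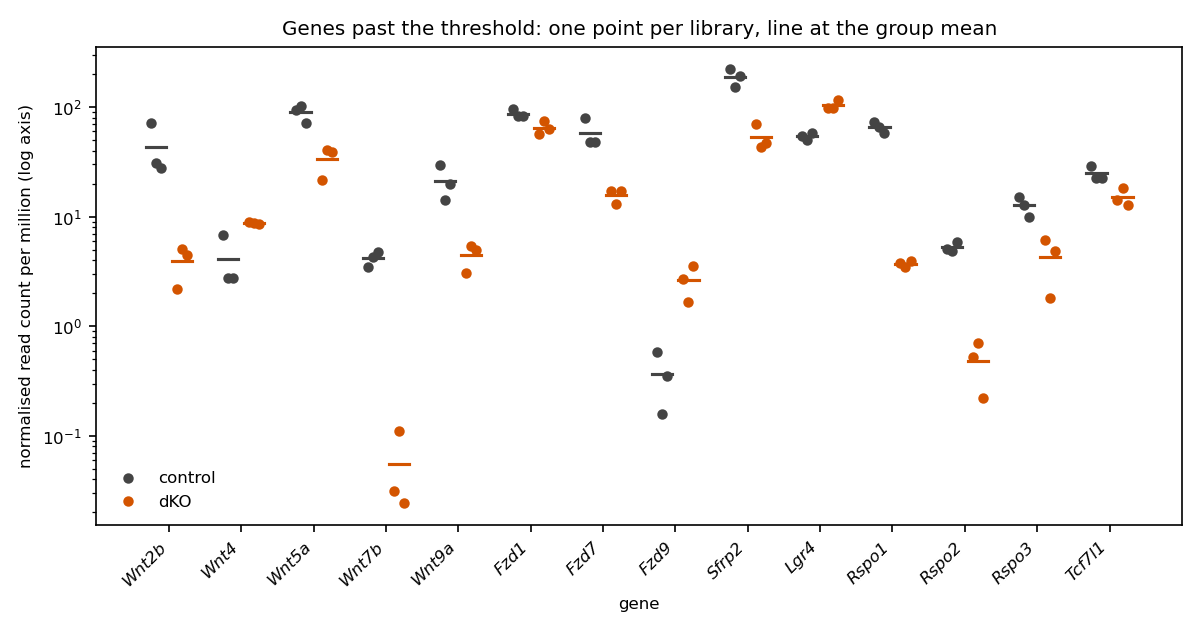
Normalised read counts of the 14 genes that passed the test, with 3 control and 3 dKO libraries as points and group means as lines on a log axis. The control and dKO points do not overlap for any of these genes, and control 1 is the highest control for Wnt2b, Wnt4, Wnt9a and Fzd7, among others.

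None of the 4 co-receptors and alternative receptors passed by limma, edgeR or DESeq2, where 22.0% of all genes passed by limma. At an unadjusted p under 0.05 (limma), 1 was lower and 1 higher. Lrp6, which joins Frizzled in the beta-catenin branch, had 162, 106 and 133 in controls and 104, 98.6 and 97.9 in dKO, without overlap and with a log2 change of -0.39 (SE 0.15, adjusted p = 0.094). Without control 2 it was -0.55 (adjusted p = 0.0241). Ror1, a receptor tyrosine kinase for Wnt5a, had 73.5, 39.7 and 46.8 in controls against 33.8, 56.9 and 53.1 in dKO, a log2 change of -0.14 (SE 0.25, adjusted p = 0.74) with overlapping groups. The log2 change was -0.08 for Lrp5 and 0.54 for Ror2, whose adjusted p values were 0.79 and 0.11.

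Among the secreted antagonists, Sfrp2 was the 1 of 4 that passed (25.0%, against 22.0% of all genes). Sfrp2 (chromosome 3, 83766321 to 83774316), a Frizzled-related protein that binds Wnt outside the cell, measured 224, 153 and 193 in controls and 70.5, 43.5 and 47.2 in dKO. Its groups were far apart, and dKO 1 was above the other dKO libraries. Sfrp2 was 3.53-fold lower, with a log2 change of -1.82 (SE 0.20, adjusted p = 0.000198), and 16.1% of its exonic length overlaps another annotated gene. Fibroblast markers, 9 of 12 of them lower in dKO, moved in the same direction, as did the epicardial, lymphatic endothelial, mast cell and macrophage lists. The part of these differences was not tested.

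Sfrp1, its closest relative in the table, had 265, 287 and 377 in controls and 173, 233 and 238 in dKO. These did not overlap, and the log2 change of -0.53 (SE 0.17, adjusted p = 0.0522) lay just outside the threshold. Without control 1 it was -0.63 (adjusted p = 0.0259). Dkk3, a divergent member of the Dickkopf family, had 40.8, 37.1 and 43.1 in controls and 61.8, 49.97 and 51.7 in dKO, again without overlap, and a log2 change of 0.42 (SE 0.14, adjusted p = 0.0537). Wif1, which binds Wnt directly, had a log2 change of 1.18 (SE 0.49, adjusted p = 0.116) without overlap. Control 1 had 7 reads of Wif1 and the other controls 64 and 86. The summed Sfrp level was 165, 137 and 176 per kb in controls and 72.3, 73.5 and 76.4 per kb in dKO, or 46.6% of the control mean, and Sfrp1 made up 44.7% and 66.1% of it (group means of the shares).

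None of the 5 cytoplasmic transducers passed by limma or edgeR, and 1 was lower by DESeq2, as was 1 at an unadjusted p under 0.05 (limma). Among all genes, 22.0% passed by limma. Axin1, a scaffold of the complex that destroys beta-catenin, had 28.1, 26.5 and 28.7 in controls and 28.4, 25.9 and 31.2 in dKO, with a log2 change of 0.03 (SE 0.15, adjusted p = 0.897) and a 95% interval of -0.29 to 0.36. Dvl1, which relays the signal from Frizzled, had 28.7, 27.1 and 38.8 in controls against 33.4, 23.4 and 25.0 in dKO, a log2 change of -0.20 (SE 0.19, adjusted p = 0.499). The log2 change was -0.06 for Dvl2 and 0.59 for Dvl3. Axin2, a widely used target gene of beta-catenin signalling that was singled out after its values were seen, had 18.1, 5.71 and 5.87 in controls and 5.004, 2.55 and 2.51 in dKO. Its groups did not overlap, but control 1 stood far above the rest. The log2 change of Axin2 was -1.19 (SE 0.42, adjusted p = 0.0685), and -0.69 (adjusted p = 0.19) without control 1. It passed with control 1 and dKO 1 both left out, at -0.94 (adjusted p = 0.0441), with library weights, at -1.15 (adjusted p = 0.0269), and with DESeq2, at -1.58 (adjusted p = 0.0121).

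Of the 3 TCF/LEF factors, 1 passed (33.3%, against 22.0% of all genes). Tcf7l1 (chromosome 6, 72626378 to 72789254), which mostly represses target genes in the absence of signal, had 28.8, 22.8 and 22.8 in controls and 14.3, 18.2 and 12.7 in dKO. All dKO libraries were below all controls, with a log2 change of -0.69 (SE 0.19, adjusted p = 0.0278). The call was lost when any single library other than dKO 2 was left out, with adjusted p values of 0.0508 without control 4, 0.0515 without control 2, 0.0628 without dKO 1, 0.0828 without control 1 and 0.11 without dKO 3. Tcf7 had 2.69, 2.07 and 1.81 in controls and 4.38, 3.74 and 4.26 in dKO, without overlap, and a log2 change of 0.69 (SE 0.26, adjusted p = 0.087). Tcf7l2, the most abundant of the 3 by normalised read count, had 33.5, 33.5 and 33.4 in controls against 44.7, 31.7 and 27.3 in dKO, a log2 change of 0.02 (SE 0.18, adjusted p = 0.961).

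**Figure D4:**
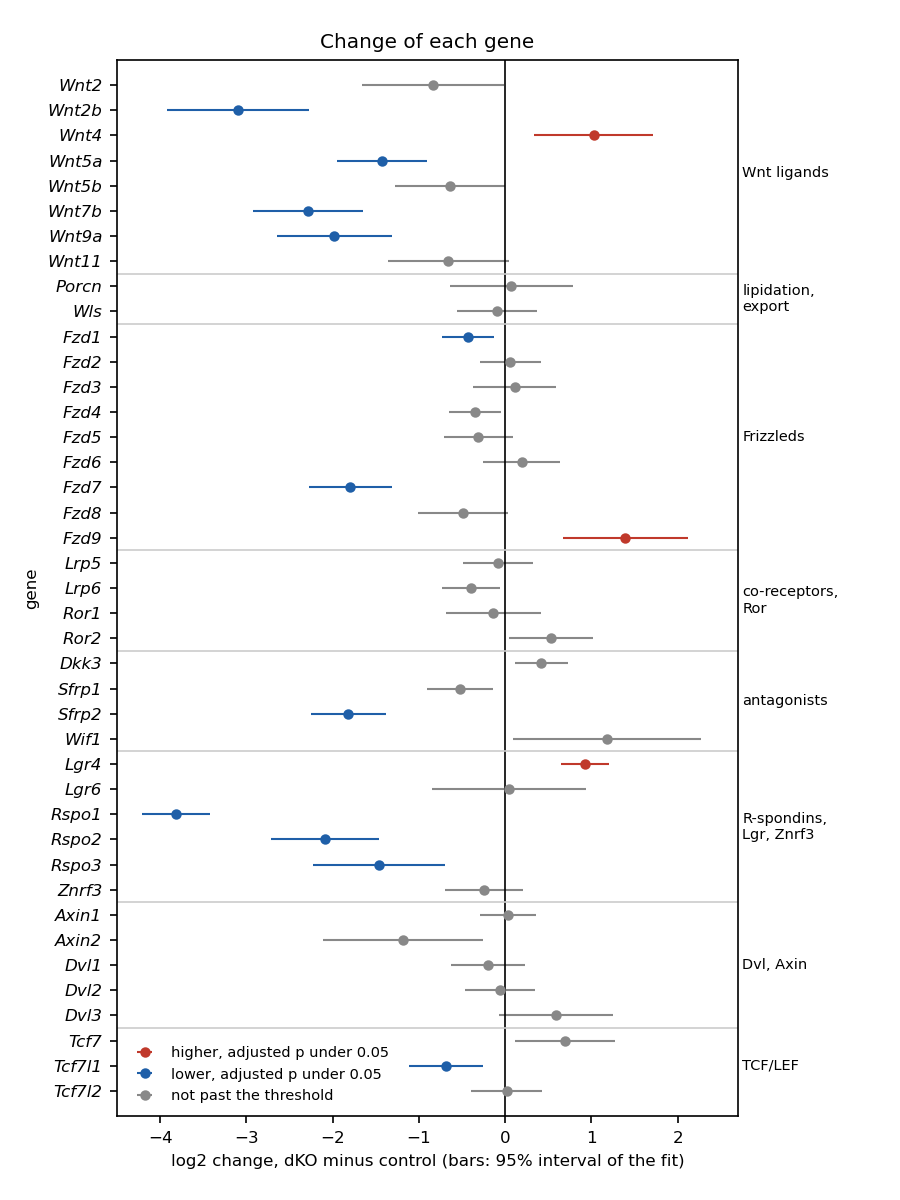
Log2 change (dKO minus control) of each of the 41 genes with the 95% interval of the limma fit, ordered by role and coloured by whether the adjusted p was under 0.05. Rspo1 lies lowest at -3.81 and Fzd9 highest at 1.40.

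Promoter sequences were searched because Meis proteins bind TGACAG-like sites and TCF/LEF proteins bind CTTTGAT- or CTTTGAA-like sites. RefSeq promoter windows (GRCm38.p6) were at hand for 26 of the 41 genes. Those without one were Wnt5a, Wnt7b, Porcn, Fzd2, Fzd3, Fzd6, Fzd8, Lrp5, Lrp6, Dkk3, Sfrp1, Rspo2, Rspo3, Znrf3 and Axin1. The 26 genes had 31 windows, and 10 of the 26 had passed the test. A gene counted when any of its windows held the motif, so the shares of genes and of all windows are not in the same unit. In the 250 bases before the start, TGACAG occurred on either strand in 2 of 26 genes (7.69%), against 15.9% of all 32851 windows. These were Tcf7l1 and Wnt4, both among the genes that passed the test, shown here with the hexamer or its reverse complement in capitals:
Tcf7l1: cagagccacgccCTGTCAaaactttgtcgc
Wnt4: ctggggcggcgcTGACAGtcgggtccgccg
The Tcf7l1 sequence is at chr6:72789065-72789094 on the minus strand and the Wnt4 sequence at chr4:137277493-137277522 on the plus strand. The hexamer ends 31 and 124 bases before the RefSeq start, respectively, and both stretches lie in the untranslated part of an exon of the gene in GENCODE M21, whose starts lie further upstream. The TCF/LEF core, CTTTGAT or CTTTGAA on either strand, occurred in 2 of 26 genes against 7.48% of all windows. These were Wnt11 and Wnt5b, neither of which passed the test, shown with the core or its reverse complement in capitals:
Wnt11: gacgtgggcggATCAAAGcgacggtccgcg
Wnt5b: agtaagtctctCTTTGATctgctccctgtc
The Wnt11 sequence is at chr7:98835050-98835079 on the plus strand, upstream of the annotated gene, and the Wnt5b sequence at chr6:119449439-119449468 on the minus strand, inside the gene but in no annotated exon. Over the whole window of 300 bases, TGACAG occurred in 3 of 26 genes (11.5%), against 19.2% of all windows. The gene added was Tcf7l2, which had not passed the test. A match of letters is a description of the sequence and does not show that a factor is bound there.

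The order of levels per kb depended on the length used. With the union of all annotated exons, in controls Sfrp2 was first at 88.2 ± 16.51 (SD, n = 3), followed by Sfrp1 at 70.8 ± 13.6 and Rspo1 at 33.8 ± 3.98. The first and the second overlapped in their spread. In dKO Sfrp1 was first at 49.1 ± 8.30 and Sfrp2 second at 25.0 ± 6.80, close to Wls at 24.8 ± 5.35. Rspo1 was in place 3 of 41 in controls and in place 26 in dKO, at 1.91 ± 0.127. Wnt2b went from place 11 to place 36 and Fzd7 from place 8 to place 19. Lgr4 moved from place 14, at 9.24 ± 0.626, to place 5, at 17.7 ± 1.86. Wnt5a had the highest group mean of the ligands, at 11.5 ± 2.03 in controls and 4.31 ± 1.36 in dKO. Its place was not the same in each library: Wnt2b was higher in control 1, at 17.2 against 12.1, and Wnt5b in dKO 1, at 5.40 against 2.745. Per kb of the longest transcript, Wls was at 65.8 in controls, above Rspo1 at 35.7, and at 61.2 in dKO, above Sfrp1 at 49.1. With that length Wnt2b also had the highest ligand mean in controls, at 13.1 against 12.8 for Wnt5a.

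**Figure D5:**
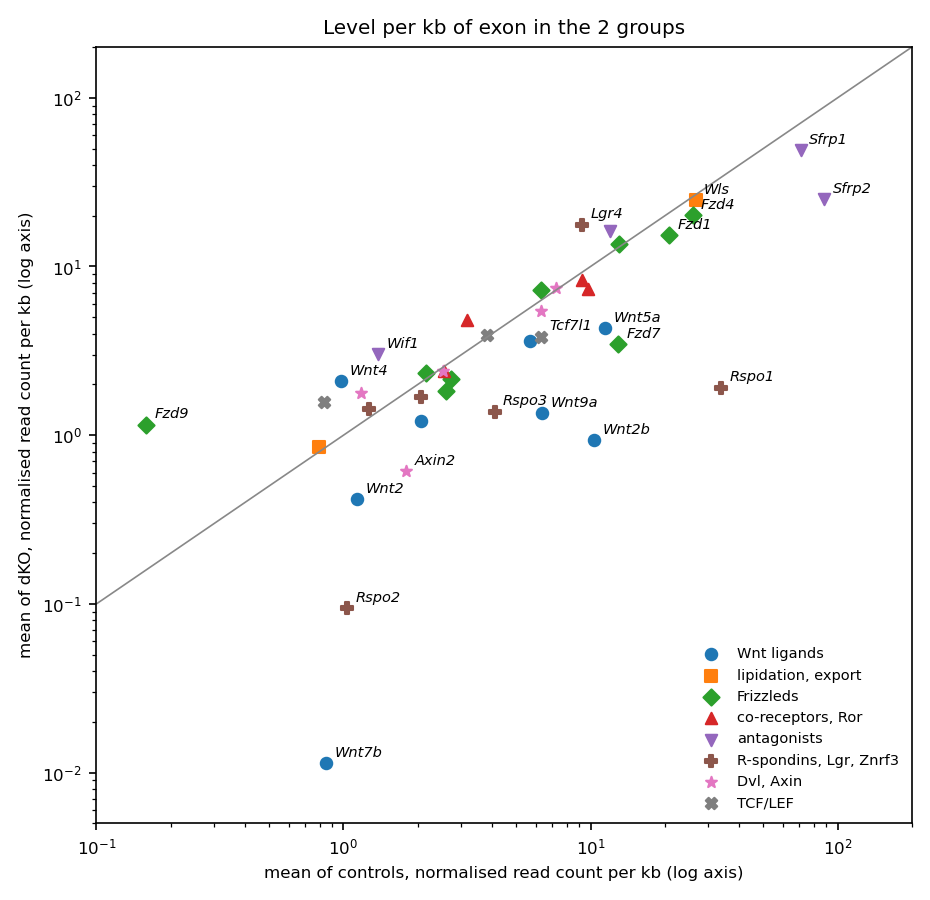
Level per kb of exon of the 41 genes in control (mean of 3 libraries) and dKO (mean of 3), on log axes, with the line of equal levels. Rspo1, Wnt2b, Wnt7b and Rspo2 lie furthest below the line, and Lgr4 lies above it.

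The controls differed among themselves for several of these genes. Control 1 was the highest control for 20 of the 41 genes, against 33.9% of all genes, and at least 1.5-fold above both other controls for 9 of them, against 6.38% of all genes. Of the 8 ligands, 4 were in that class. Control 1 also had the lowest summed level of cardiomyocyte markers, 5774, and the highest of epicardial and mesothelial markers, 4477. With control 1 left out, 13 of the 41 genes passed, where Fzd1 and Tcf7l1 were lost and Sfrp1 was gained.

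Other genes of the pathway were read from 5 lists. Of 20 genes for beta-catenin and its destruction complex, 3 were higher and none was lower by limma, edgeR or DESeq2, nor was any lower at an unadjusted p under 0.05, and the median log2 change was 0.08. The share of higher genes was 15.0%, against 9.81% of all genes, and 12.2% of all genes were lower. They were Tnks (0.38, adjusted p = 0.0325), a tankyrase that marks Axin for removal, Fbxw11 (0.39, 0.0355), part of the ubiquitin ligase for beta-catenin, and the kinase gene Csnk1e (0.41, 0.0387). These calls were not stable to single libraries: 1 of the list passed without control 1 or without control 4, and 0 passed without control 2, dKO 1, dKO 2 or dKO 3. Of 18 measured nuclear cofactors, 1 was higher (5.56%, against 9.81% of all genes), the transcription factor gene Sox7 (0.95, adjusted p = 0.00557). None was lower by limma, edgeR or DESeq2, and 1 was at an unadjusted p under 0.05.

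Of 19 measured genes listed as beta-catenin targets, 4 were lower, 1 was higher and 14 did not pass, with a median of 0.04. That is 21.1% lower and 5.26% higher, against 12.2% and 9.81% of all genes. The higher gene was Lbh, which passed with each library left out in turn. Nkd1, a feedback inhibitor that binds Dvl, had 35.5, 18.6 and 18.4 in controls and 5.13, 5.88 and 6.36 in dKO, a log2 change of -1.83 (SE 0.27, adjusted p = 0.00116). Bmp4, a ligand of the BMP pathway, changed by -1.10 (SE 0.17, adjusted p = 0.00147). The other genes with the smallest p were Ephb2 (-1.83, adjusted p = 0.00256), an ephrin receptor, and Edn1 (-1.03, 0.00472), which encodes endothelin. Targets of this kind are also regulated by other pathways.

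The listed extracellular and membrane regulators outside the symbol rule had 6 lower and 3 higher genes of 22 measured, with a median of -0.22. That is 27.3% lower and 13.6% higher, against 12.2% and 9.81% of all genes. Leaving out 1 library at a time gave 5 to 6 lower and 2 to 4 higher genes, so not every call was stable. Sulf1, Reck, Gpc3 and Frzb passed with each library left out in turn. The genes named here are those with the smallest p and were all lower, so the higher ones are not among them. Sulf1, which trims the heparan sulfate that holds Wnt proteins, measured 1292, 801 and 855 in controls and 122.6, 155 and 159 in dKO, a log2 change of -2.72 (SE 0.19, adjusted p = 1.37e-05). Reck, a membrane protein that helps Wnt7 ligands signal, changed by -2.10 (SE 0.21, adjusted p = 0.00011). Gpc3, a cell surface proteoglycan, had 1980.5, 1596 and 1659 in controls against 477, 527 and 769.7 in dKO, and a log2 change of -1.59 (SE 0.20, adjusted p = 0.000477). Frzb, a secreted Frizzled-related antagonist, had 21.2, 35.1 and 40.7 in controls and 7.99, 7.06 and 5.82 in dKO, and fell by 2.03 on the log2 scale (SE 0.25, adjusted p = 0.000483).

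Of 19 measured planar cell polarity genes, 4 were lower, 3 were higher and 12 did not pass, with a median of 0.20. That is 21.1% lower and 15.8% higher, against 12.2% and 9.81% of all genes. The lower count was 3 without control 1, 2 without control 2, control 4, dKO 1 or dKO 3, 1 without dKO 2 and 2 with edgeR. The higher count was 0 without control 2 or dKO 1 and 1 without dKO 3. Daam2, a formin downstream of Dvl, changed by -0.70 (SE 0.16, adjusted p = 0.00967) and passed with each library left out in turn. Celsr2, a cadherin of the polarity complex, changed by 1.10 (SE 0.27, adjusted p = 0.0164) and was lost without control 2 or dKO 1. The kinase gene Rock2 (-0.46, adjusted p = 0.0165) was lower and was lost without dKO 2, and Ankrd6 (0.88, 0.0214) was higher and was lost without control 2, dKO 1 or dKO 3.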

How the data were processed

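Polyadenylated RNA of 3 control and 3 dKO pools was sequenced. Per the submitters' processing notes, the authors used cutadapt and RSEM 1.3.1 on GRCm38, and the deposited values are a normalised signal per gene. No source used here names the annotation release or the normalization. All 87294 values were a whole number of reads plus 0.5 per 1000000 of a scaled library size (tolerance 0.01 reads), so reads were recovered. On this scale 1 read was worth 0.0487 to 0.0740. The scaled library sizes nearly equalled the read totals times the TMM scaling factors of edgeR. They were 16193843 against 16193842 for control 1 and 20525873 against 20525872 for dKO 3, and the other libraries matched as closely. A filter asked for a value of at least 1 in 3 libraries, and all 14549 genes met it. The test of dKO against control used limma 3.58.1 under R 4.3.3 (variance trend, no covariates), after adding 1 and taking log2, which shrinks the change of low genes. P-values were two-sided and Benjamini-Hochberg adjusted over all genes, with a threshold of 0.05. edgeR 4.0.16 and DESeq2 1.42.0 were run on the recovered reads as alternatives. The fit was tested on simulated data.

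Levels per kb divide by the union of GENCODE M21 exons. The library kit is not stated to keep strand, so reads from overlapping genes cannot be told apart. Pools of 2 hearts are the replicates, and the spread between single hearts was not measured. No 2 libraries of a group agreed within sampling noise. The numbers 1 and 2 are used in both groups, but no label ties same-numbered pools to each other, so the main fit did not treat them as pairs. A block by number was fitted only as an alternative.

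The genes and lists were chosen with earlier results of these data known. Named are all members with their change, per-library values for those past the threshold whose higher group mean reached 5 and for up to 2 others per role with the highest mean, and of each list of other pathway genes up to 4 past the threshold with the smallest p. Values of Wnt7b, Fzd9 and Axin2, and the name of Lbh, were added after they were seen. Alternatives were another pseudocount, filter, normalization and variance model, library weights, leaving out libraries, a replicate block, a cardiomyocyte marker score as covariate and, chosen after seeing the data, removal of mitochondrial genes.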

Additional observations from a re-analysis of the deposited data

How the results depend on the processing

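Of the 14 genes past the threshold, Wnt2b, Wnt5a, Wnt9a, Fzd7, Sfrp2, Lgr4 and Rspo3 passed in every alternative except the cardiomyocyte covariate, Wnt7b and Rspo2 likewise wherever they were tested, and Rspo1 in all 18. No gene of the 14 changed direction. Of 249 fits of these 14 genes 212 kept the call and 37 lost it, and of 483 fits of the other 27 genes 19 gained a call and 49 changed sign. These counts include the fit without a filter, which could not differ from the main fit because all 14549 genes met the filter. In the cases that follow the cause was not tested unless fewer libraries or genes were used.

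The replicate block, fitted on numbers that are not known to pair the pools and with 1 residual degree of freedom, left 580 higher and 780 lower genes of the whole table (1427 and 1778 without it). Control 4 and dKO 3 share their number with no other library, so the block fitted each of them exactly. Its estimates therefore rested on control 1, control 2, dKO 1 and dKO 2 alone. Same-numbered pools deviated from their group means with correlations of -0.18 and -0.20. Of the 41 genes 10 passed with the block, 1 of them higher; Wnt4, Fzd1, Fzd9 and Tcf7l1 were lost, which left 0 higher ligands, 0 higher and 1 lower Frizzled gene, and 0 lower TCF/LEF genes. Of the other lists, 0 higher genes were left in the destruction complex, 0 among nuclear cofactors, and 0 higher and 0 lower in planar cell polarity. Under the block the sign changed for Fzd3 (-0.056), Lrp5 (0.10), Lgr6 (-0.31), Axin1 (-0.0063), Dvl1 (0.0041) and Dvl2 (0.011).

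With the cardiomyocyte marker covariate 60 genes of the table were higher and 225 lower, and of the 41 genes 0 were higher and 1 was lower. By role that is 0 higher and 0 lower ligands, 0 higher and 0 lower Frizzled genes, 0 lower antagonists, 0 higher and 1 lower of the R-spondin group and 0 lower TCF/LEF genes. In the other lists it left 0 higher genes of the destruction complex, 0 higher and 1 lower target, 0 higher nuclear cofactors, 1 higher and 2 lower extracellular regulators, and 0 higher and 0 lower polarity genes. Meis2 was at -0.63 and did not pass. Signs changed for Wnt2 (0.56), Porcn (-0.60), Wls (0.98), Fzd5 (0.13), Fzd6 (-0.095), Lrp6 (0.17), Ror1 (1.13), Wif1 (-1.69), Lgr6 (-0.85), Znrf3 (0.46), Axin2 (0.62), Tcf7l2 (-0.17) and Meis1 (0.91).

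Quantile normalization gave 5 higher genes of the 41, with 1 higher and 2 lower antagonists and 1 higher TCF/LEF gene. edgeR gave 0 higher ligands and 2 lower polarity genes, and DESeq2 1 higher and 2 lower antagonists and 1 lower transducer. The filter at 5 gave 0 higher Frizzled genes and 1 higher antagonist. Without the variance trend there were 1 lower Frizzled gene, 1 higher TCF/LEF gene, 0 higher genes of the destruction complex and 1 lower polarity gene. Library weights gave 2 lower antagonists, 1 lower transducer and 2 higher targets, and changed the sign of Porcn (-0.12), Wls (0.13), Fzd2 (-0.012), Ror1 (0.089) and Tcf7l2 (-0.13). Without both control 1 and dKO 1 there were 2 lower antagonists, 1 lower transducer, 0 lower TCF/LEF genes, 0 higher genes of the destruction complex and 2 higher targets, and signs changed for Porcn (-0.16), Wls (0.29), Fzd2 (-0.060), Ror1 (0.34), Lgr6 (-0.32), Tcf7l2 (-0.18) and Meis1 (0.13).

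Leaving out 1 library at a time gave 898 to 1262 higher and 1269 to 1545 lower genes of the table, and 1 to 3 higher and 9 to 11 lower of the 41. By role it gave 0 to 1 higher ligands, 0 to 1 higher and 1 to 2 lower Frizzled genes, 0 to 1 lower co-receptors, 1 to 2 lower antagonists and 0 to 1 lower TCF/LEF genes. The other lists had 0 to 1 higher genes of the destruction complex, 1 to 2 higher targets, and 0 to 3 higher and 1 to 3 lower polarity genes. The sign of the change depended on the library left out for Porcn (-0.058 to 0.29), Wls (-0.25 to 0.13), Fzd2 (-0.085 to 0.14), Fzd3 (-0.042 to 0.29), Lrp5 (-0.22 to 0.033), Ror1 (-0.32 to 0.11), Lgr6 (-0.26 to 0.54), Axin1 (-0.031 to 0.097), Dvl2 (-0.15 to 0.010), Tcf7l2 (-0.18 to 0.17) and Meis1 (-0.32 to 0.045), none of which had passed the test. With the longest transcript in place of the exon union, the level per kb of 10 of the 41 genes moved by more than 1 SD, and Wls took first place in dKO. Wnt7b, Fzd9, Rspo2 and Wnt2 rest on few reads, which limits their precision.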
